A study of Mus musculus with 26 samples.

Results

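The genes described here are 9 genes of T cell costimulation and inhibition, the receptor genes Cd28, Icos, Ctla4, Pdcd1, Cd27, Tnfrsf4, Tnfrsf9 and Tnfrsf18 and the ligand gene Cd40lg. They were chosen by symbol, and all 9 were found among the 46517 gene symbols of the table. RNA was sequenced from sorted thymocytes of 3 lines of T cell receptor (TCR) transgenic mice, in 26 libraries that form 9 groups. TG6 mice (TG6tg H2b/d), from a cross of the strains C57/BL6 and B6.C-H2d/bByJ, carry a TCR of low self-reactivity, F5 mice (F5tg Rag1KO, C57/BL6) one of intermediate self-reactivity and OT-1 mice (OT-1tg Rag2KO, C57/BL6) one of high self-reactivity. Each line was sorted at early positive selection (CD4+CD8+, CXCR4+ and CCR7-), at late positive selection (CD4+CD8+, CXCR4- and CCR7+) and as mature CD8 single-positive cells (CD8SP, which lack CD4, CXCR4- and CCR7+). There were 3 libraries a group, except 2 for TG6 at late positive selection. All groups share an MHC class I-restricted TCR transgene. The Rag genes were intact in TG6, so that endogenous TCR chains could still rearrange there, and were deleted in F5 and OT-1. Self-reactivity, Rag genotype and strain background therefore cannot be told apart in any comparison with TG6, and each line is 1 TCR. The labels give no age for the mice.

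A T cell reads its antigen through the TCR, and receptors of the CD28 and TNF receptor families tune that signal. CD28 and ICOS add to it through PI3 kinase and, for CD28, NF-kB, while CTLA-4 competes with CD28 for its ligands and PD-1 (Pdcd1) recruits phosphatases. CD27, OX40 (Tnfrsf4), 4-1BB (Tnfrsf9) and GITR (Tnfrsf18) signal through TRAF adaptors to NF-kB, and CD40LG on a T cell engages CD40 on antigen-presenting cells. In the thymus several of these genes are known to be induced by TCR signals during selection.

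The values are normalized counts, that is, estimated read counts that the authors scaled between libraries. They summed to 16134786 to 18944173 per library. Of the sort markers, Cd4 ranged from 7980 to 22730 at the early stage, 1455 to 10660 at the late stage and 62.8 to 460.7 in mature CD8SP, and Ccr7 from 112.3 to 863.3, 2698 to 10980 and 3958 to 12720 at the same 3 stages. Cxcr4 RNA stood at 1425 to 5527 at the early stage, 350.1 to 2561 at the late stage and 1219 to 4031 in mature CD8SP, so that mature cells sorted as CXCR4- overlapped the early cells in its RNA. The proliferation gene Mki67 ranged from 16190 to 34570, from 109 to 3139 and from 6220 to 30470 in turn. Foxp3, which defines regulatory T cells that carry several of the receptors, was at 1.03 to 46.9, Zbtb16 of NKT cells at 0 to 2.95 and Ncr1 of NK cells at 0 in all 26 libraries. Klrk1, also on the list of NK cells and known on CD8 T cells too, stood in mature CD8SP at 29.5 to 33.4 in TG6, 0.593 to 2.34 in F5 and 14.9 to 22.4 in OT-1. In sorted bulk samples, fewer cells that carry a gene and less RNA per cell cannot be told apart.

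**Figure D1:**
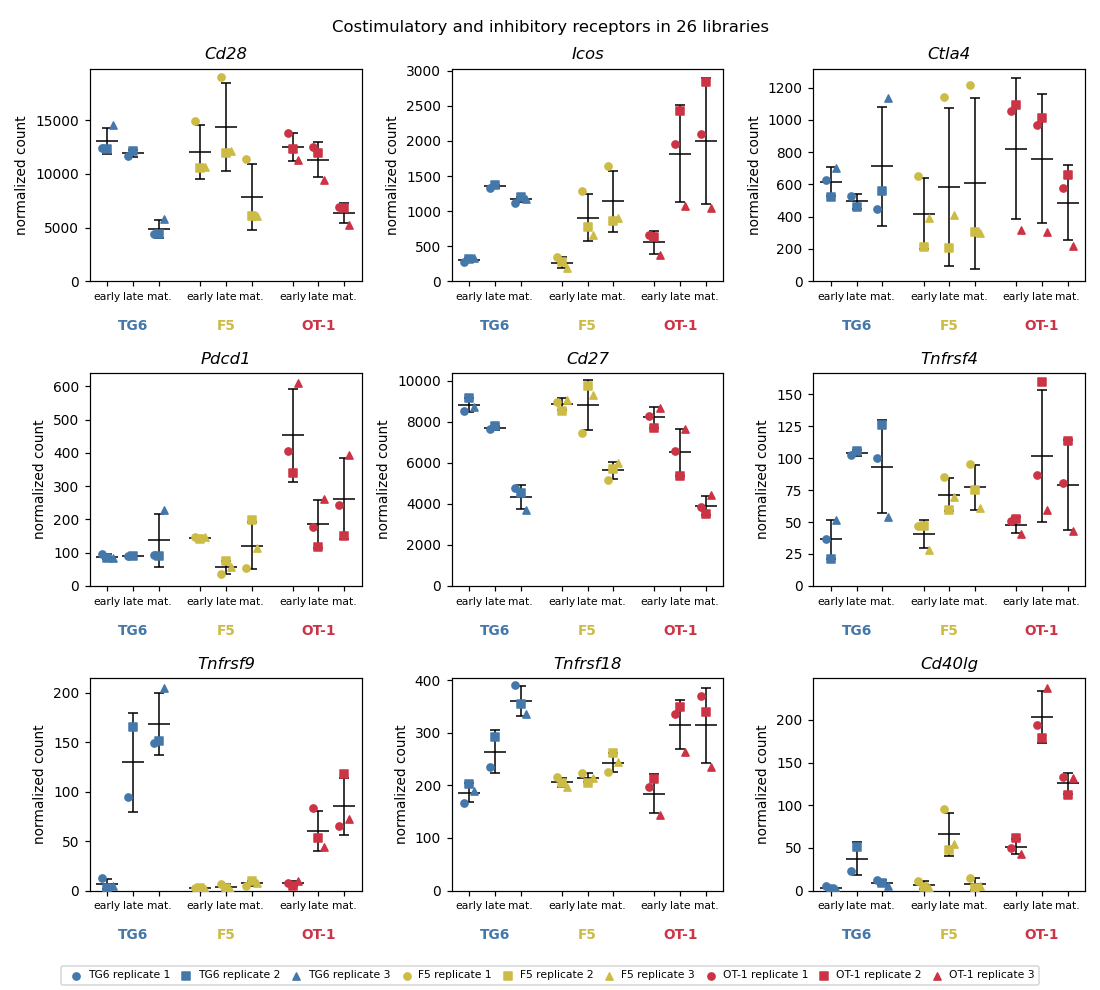
Normalized count (y axis, linear, from 0) of each of the 9 genes in the 26 libraries, by line and stage (x axis). Points are libraries, with a marker shape for each replicate number, and the bar and whiskers are the mean and SD of the group (n = 3, TG6 late n = 2). Tnfrsf9 lies at 9.93 or below in all F5 libraries, Cd40lg is highest in OT-1 at each stage, and Ctla4 is highest in replicate 1 within F5 and lowest in replicate 3 within OT-1 at each stage.

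Differences were tested with limma on log2(normalized count + 1) over 16372 genes, and genes with a p under 0.05 after Benjamini-Hochberg adjustment within a comparison were called. Log2 fold changes on this scale understate the change of genes at low counts. All 9 genes passed the filter of at least 10 in at least 2 libraries, 7 of them with every library at 10 or above. Tnfrsf9 reached 10 in 12 libraries and Cd40lg in 17, so both passed through the groups in which they were high. The comparisons between lines share libraries and are not independent of each other. The p-values rest on the spread between libraries within groups, pooled over all 9 groups. Libraries of 1 replicate number at different stages entered the main fit as independent.

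Between lines, most calls were in Cd40lg, Pdcd1 and Tnfrsf9. Cd40lg was higher in OT-1 than in either other line at all 3 stages, Pdcd1 was higher in OT-1 than in F5 at all 3 stages and than in TG6 at the early stage, and Tnfrsf9 was lower in F5 than in either other line at the late and mature stages. Cd28, Ctla4 and Tnfrsf4 were called in none of the 9 comparisons between lines. For OT-1 against TG6, 2 of the 9 genes were called at the early stage, where 27.8% of all genes were called, 1 at the late stage (15.5% of all genes) and 1 in mature CD8SP (9.74%). Against F5 the numbers for OT-1 were 2 (12.7%), 6 (24%) and 4 (23.3%) of 9 in the same order. Between F5 and TG6 they were 0 (6.46%), 1 (4.97%) and 2 (6.64%). With 9 genes, none of these counts is read as a property of the receptors as a set.

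**Figure D2:**
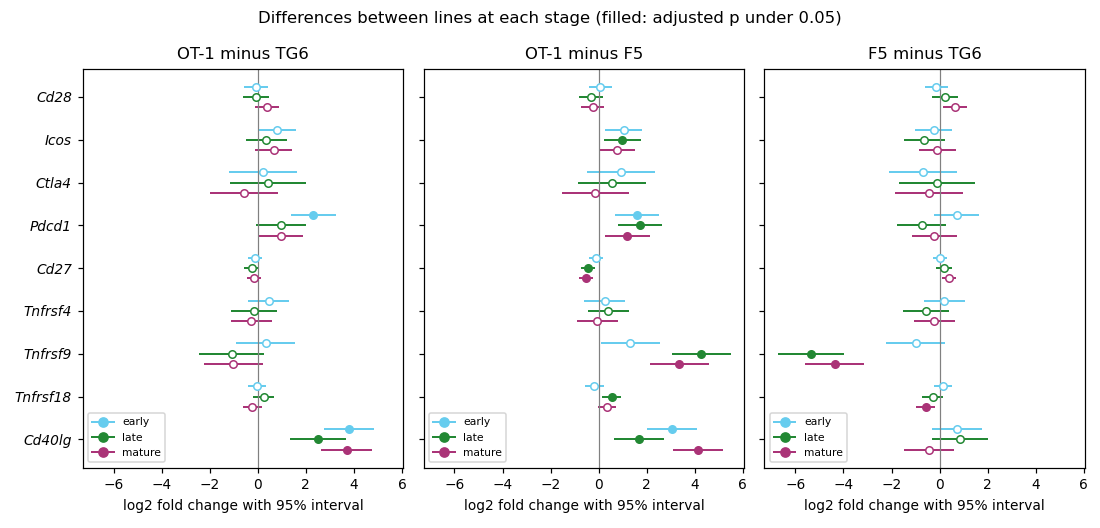
Log2 fold change between lines (x axis) for each gene (y axis) at the early, late and mature stages, with the 95% interval as a line. Filled points had an adjusted p under 0.05. Cd40lg lies to the right for OT-1 in both comparisons, from 1.67 to 4.13, and Tnfrsf9 for F5 minus TG6 lies at -5.35 at the late stage and -4.36 in mature CD8SP.

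Between stages, some of the genes moved in more than 1 line. Icos rose from early to late in all 3 lines, Cd40lg rose over the same step in all 3 and fell again to mature CD8SP in TG6 and F5, and Cd28 and Cd27 fell from late to mature in all 3. Pdcd1 fell from early to late in F5 and OT-1, and Tnfrsf9 rose in TG6 and OT-1. Over that step the rise of Tnfrsf4 was called in TG6 alone, and the rise of Tnfrsf18 and the fall of Cd27 in OT-1 alone. From early to late, 4 of the 9 genes were called in TG6 (25.4% of all genes), 3 in F5 (26.7%) and 6 in OT-1 (26.7%). From late to mature the counts were 3 in TG6 (22.3%), 3 in F5 (20.5%) and 2 in OT-1 (24.4%). Mki67 and the Cd4 and Ccr7 levels given above moved over the same steps, and their part in these changes was not tested.

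**Figure D3:**
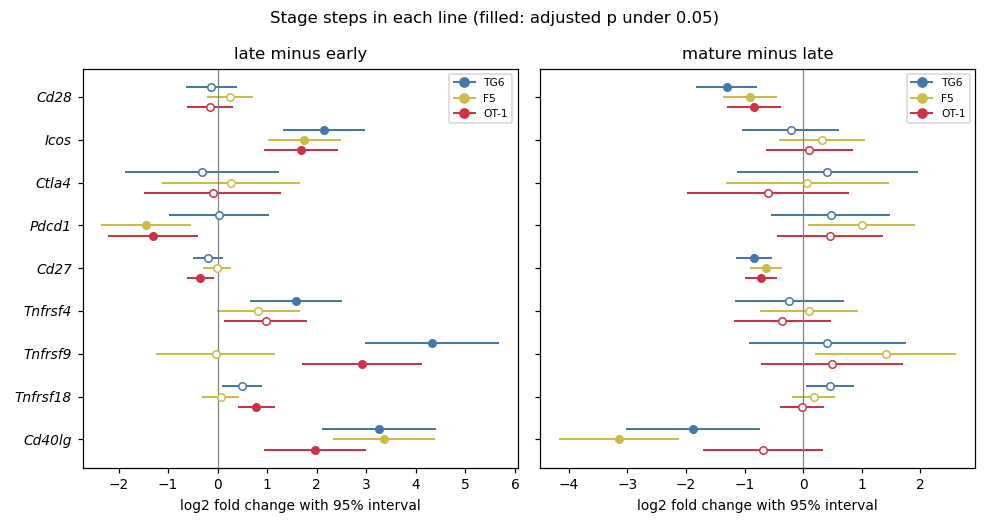
Log2 fold change over the 2 stage steps (x axis) for each gene (y axis) in the 3 lines, with the 95% interval as a line and filled points for an adjusted p under 0.05. The intervals of Icos lie above 0 for late minus early in all 3 lines, and those of Cd28 and Cd27 lie below 0 for mature minus late.

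Whether a stage change differed between lines was tested directly. For the change from early to mature, 0 of the 9 genes differed between OT-1 and TG6 (4.2% of all genes), 0 between OT-1 and F5 (1.64%) and 1 between F5 and TG6 (4.4%), which was Tnfrsf9. At an unadjusted p under 0.05 the numbers were 1 of 9 for OT-1 against TG6 (14.1% of all genes), 3 for OT-1 against F5 (12.4%) and 4 for F5 against TG6 (16.7%). In comparisons added after the values were seen, the step from early to late differed between F5 and TG6 in 1 gene, again Tnfrsf9 (2.08% of all genes), and in 0 genes for OT-1 against TG6 (2.04%) and OT-1 against F5 (1.68%). The step from late to mature differed in 0 of 9 for OT-1 against TG6 (1.17%), OT-1 against F5 (0.843%) and F5 against TG6 (0.116%). With replicate number as a block by consensus correlation, further differences passed and are given beside each gene, among them the early to late step of Tnfrsf18 and the late to mature step of Cd40lg between OT-1 and F5.

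Among the CD28 family, Cd28, the main costimulatory receptor of naive T cells, stood at high levels in every group (chromosome 1, 60716800 to 60773359, plus strand, GRCm38). Cd28 counts in TG6 were 12420, 12320 and 14520 at the early stage, 11710 and 12150 at the late stage and 4387, 4370 and 5828 in mature CD8SP. Cd28 counts in F5 were 14920, 10530 and 10670, then 19070, 11950 and 12120, then 11390, 6092 and 6113. Cd28 counts in OT-1 were 13860, 12370 and 11280, then 12550, 11960 and 9462, then 6922, 6845 and 5265. Mature CD8SP libraries lay below all late libraries of their own line. Early and late libraries overlapped in F5 and OT-1, while both TG6 late libraries lay slightly below the TG6 early ones. All 3 F5 replicate numbers rose from early to late. With mouse as a fixed term this rise was called (log2 fold change 0.24, adjusted p = 0.0187, against 0.456 without). Cd28 fell from late to mature by 1.31 on the log2 scale in TG6 (SE 0.24, adjusted p = 0.000411), by 0.90 in F5 (SE 0.21, adjusted p = 0.00404) and by 0.84 in OT-1 (SE 0.21, adjusted p = 0.00684). The F5 call was lost in a fit of the compared groups alone (adjusted p = 0.0806), and the OT-1 call when all libraries of mouse 1 (adjusted p = 0.056) or of mouse 2 (0.0563) were left out. Between lines the largest difference was F5 above TG6 in mature CD8SP, 0.64 with a 95% interval from 0.20 to 1.09 (adjusted p = 0.0806), which passed with mouse as a block (adjusted p = 0.0326) and without TG6 mature replicate 3 (0.0403) or F5 mature replicate 2 (0.045). With that block, the change of Cd28 from early to mature also differed between F5 and TG6 (log2 difference 0.78, adjusted p = 0.026, against 0.178 without the block). With mouse as a fixed term Cd28 also differed in the early to mature change between OT-1 and TG6 (0.45, adjusted p = 0.0132), in the early to late step between OT-1 and F5 (-0.39, adjusted p = 0.0461) and in the late to mature step between OT-1 and TG6 (0.58, adjusted p = 0.0106).

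Icos, whose product is an inducible relative of CD28, lies 62094 bases from Ctla4 and Ctla4 113640 bases from Cd28 in the same cluster on chromosome 1 (Icos, 60977927 to 61000320, plus strand). Icos counts in TG6 were 272.6, 309.3 and 333.7 at the early stage, 1331 and 1371 at the late stage and 1122, 1198 and 1177 in mature CD8SP. Icos counts in F5 were 340.6, 270.3 and 185.1, then 1290, 769.8 and 661.5, then 1640, 862.5 and 907.8. Icos counts in OT-1 were 652.2, 636.4 and 367.5, then 1957, 2429 and 1068, then 2096, 2843 and 1051. Every late library lay above every early library of its line, while late and mature libraries overlapped in F5 and OT-1, and in TG6 the mature libraries lay somewhat below the late ones. The rise from early to late was 2.15 on the log2 scale in TG6 (SE 0.39, adjusted p = 0.000225), 1.75 in F5 (SE 0.35, adjusted p = 0.000624) and 1.68 in OT-1 (SE 0.35, adjusted p = 0.00102). The 3 OT-1 early libraries lay above all early libraries of F5 and of TG6, at differences of 1.05 (95% interval 0.33 to 1.78, adjusted p = 0.0509) and 0.81 (0.09 to 1.53, adjusted p = 0.0881). Both passed with mouse as a block (adjusted p = 0.0183 and 0.0415) and without OT-1 early replicate 3 (0.025 and 0.0412), and the first passed without F5 early replicate 1 (0.0395). At the late stage OT-1 exceeded F5 by 0.98 (SE 0.35, adjusted p = 0.0442), a call that was lost in 4 of 6 fits without 1 library, namely F5 late replicates 2 and 3 and OT-1 late replicates 1 and 2 (adjusted p = 0.126 to 0.195). It was also lost in 5 other alternatives (adjusted p = 0.0513 to 0.0761), namely no filter, total scaling, quantile normalization, no trend and the compared groups alone. In mature CD8SP the difference to F5 was 0.76 (adjusted p = 0.12), and 1.17 without OT-1 mature replicate 3 (adjusted p = 0.0229).

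Ctla4, which encodes the inhibitory counterpart of CD28, was called in 0 of the 18 comparisons between lines or stages in the fit without a block, with a lowest adjusted p of 0.405 (chromosome 1, 60887000 to 60915832, plus strand). Ctla4 counts in TG6 were 626.7, 522.8 and 702.7 at the early stage, 528.5 and 460.1 at the late stage and 445, 559.3 and 1133 in mature CD8SP. Ctla4 counts in F5 were 652.4, 212.3 and 391.1, then 1139, 202.9 and 410.9, then 1218, 302.1 and 300. Ctla4 counts in OT-1 were 1056, 1091 and 316.9, then 966.1, 1011 and 301.8, then 578.7, 656.8 and 220.6. In F5 replicate 1 was the highest library at all 3 stages, and in OT-1 replicate 3 was the lowest at all 3. The residual SD of Ctla4 within groups was 0.898 on the log2 scale, against a median of 0.301 over all genes tested, and was the largest of the 9 genes. The 95% interval of OT-1 minus TG6 accordingly ran from -1.15 to 1.59 at the early stage and from -1.10 to 1.96 at the late stage. In mature CD8SP it ran from -1.95 to 0.7876, so that differences under 0.7876 in either direction lie inside the interval at each stage.

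The same replicate numbers stood apart in Nr4a1, the immediate response gene of TCR signalling that encodes Nur77. Nr4a1 counts in F5 were 9595, 2806 and 3371 at the early stage, 10450, 2902 and 3247 at the late stage and 6049, 2029 and 2777 in mature CD8SP. Nr4a1 counts in OT-1 were 16130, 14650 and 6006, then 13330, 9993 and 4592, then 5010, 3848 and 2518. Nr4a1 counts in TG6 were 2283, 2299 and 6879 at the early stage, 1428 and 1864 at the late stage and 1063, 987.8 and 6859 in mature CD8SP. F5 replicate 1 was thus high and OT-1 replicate 3 low in both genes at every stage, and TG6 replicate 3 was the highest of its group in both genes at the 2 stages at which it was sequenced. As mean deviation from the group mean on the log2 scale, F5 replicate 1 lay at 1.15 for Ctla4, 1.06 for Nr4a1 and 0.93 for Cd40lg. It lay at 0.52 for Icos and 0.46 for Cd28, and all 3 libraries lay above the group mean for each of these genes. Its mean deviation was -0.51 for Pdcd1 and -0.11 for Cd27, with libraries on either side of the group mean. OT-1 replicate 3 lay at -1.10 for Ctla4, -0.78 for Nr4a1, -0.68 for Icos, -0.54 for Tnfrsf4, -0.33 for Tnfrsf18 and -0.22 for Cd28, but at 0.58 for Pdcd1 and 0.17 for Cd27. With replicate number as a fixed term, Ctla4 fell from late to mature in OT-1 (log2 fold change -0.60, limma adjusted p = 0.0426, against 0.542 without it), where all 3 numbers went down, and with the block as a consensus correlation it was not called. These libraries were singled out after their values were seen. TG6 mature replicate 3 also had an Mki67 of 23180 against 6220 and 7129 in the other libraries of its group, a Cd4 of 460.7 against 128.6 and 77.1, and a Cd8a of 21300 against 31940 and 30830. The labels call the numbers biological replicates and do not state that libraries of 1 number come from 1 mouse. They are read as mice here, and what sets them apart was not tested.

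**Figure D4:**
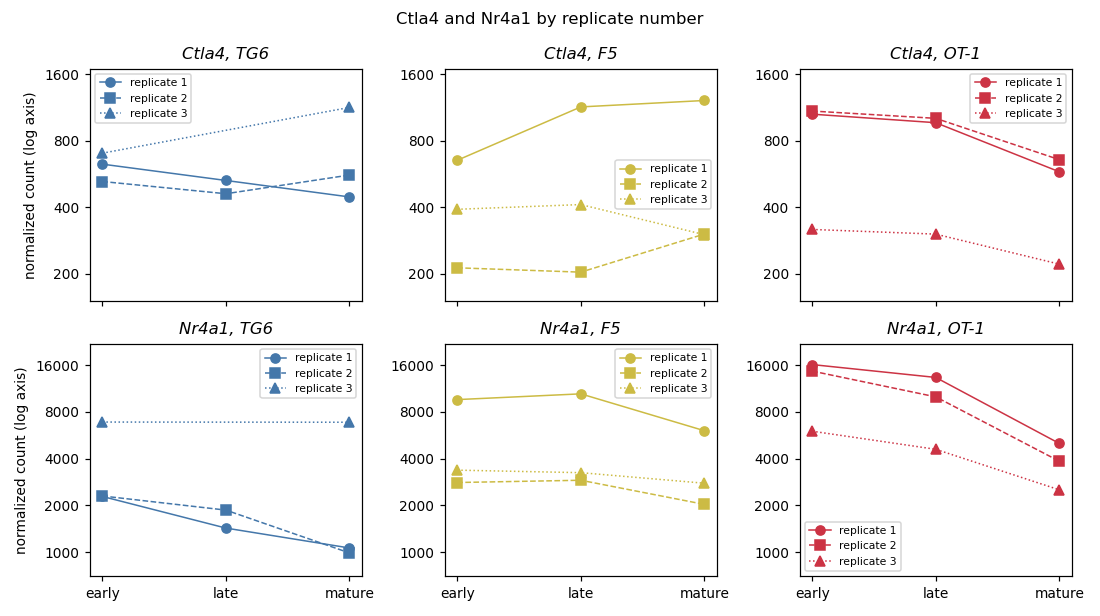
Normalized count of Ctla4 (top row) and Nr4a1 (bottom row) on a log y axis across the 3 stages (x axis) for each replicate number, in TG6, F5 and OT-1. TG6 replicate 3 has no late library, so its line joins the early and mature values. F5 replicate 1 is the top line and OT-1 replicate 3 the bottom line in both genes.

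The 250 bases before the RefSeq start of Ctla4 (GRCm38.p6, plus strand, chr1:60908775-60909024, inside an intron of a longer transcript in GENCODE vM21) hold 1 match to the NFAT core GGAAA, in capitals. The sequence is shown because Ctla4 had the widest spread of the 9 genes, and the match is a description of letters.

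Ctla4 promoter: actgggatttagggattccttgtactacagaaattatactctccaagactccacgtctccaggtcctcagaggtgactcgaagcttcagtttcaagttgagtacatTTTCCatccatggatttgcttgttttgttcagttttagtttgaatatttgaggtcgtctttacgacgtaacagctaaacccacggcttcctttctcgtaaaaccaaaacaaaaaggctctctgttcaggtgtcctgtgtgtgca

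Pdcd1 encodes PD-1, an inhibitory receptor whose transcription follows TCR signals (chromosome 1, 94038305 to 94052553, minus strand). Pdcd1 counts in TG6 were 96, 84.5 and 83.2 at the early stage, 89.1 and 89.5 at the late stage and 92.9, 89.4 and 227.8 in mature CD8SP. Pdcd1 counts in F5 were 147.1, 141.2 and 145.6, then 34.7, 75.3 and 56.0, then 53.6, 196.6 and 113.4. Pdcd1 counts in OT-1 were 405.7, 340.4 and 610.3, then 178, 118.3 and 261.6, then 242.7, 151.4 and 392.9. All OT-1 early libraries lay above all early libraries of F5, which in turn lay above those of TG6, and at the late stage OT-1 again lay above the other lines without overlap. In mature CD8SP the lines overlapped. OT-1 exceeded TG6 at the early stage by 2.31 on the log2 scale (SE 0.43, adjusted p = 0.000363). It exceeded F5 by 1.59 at the early stage (SE 0.43, adjusted p = 0.0157), by 1.72 at the late stage (adjusted p = 0.00507) and by 1.19 in mature CD8SP (adjusted p = 0.0483). The early call against F5 was lost without F5 early replicate 2 (adjusted p = 0.0521) or OT-1 early replicate 3 (0.0715). Fits without 1 mouse lost it in 3 of 6 (adjusted p = 0.0574 to 0.0675), and the mature call against F5 in 4 of 6 (0.124 to 0.252). The mature call against F5 was lost in 4 of 6 fits without 1 library, namely replicates 1 and 3 of either line, with a difference of 0.70 and an adjusted p of 0.264 without F5 mature replicate 1, and in 5 other alternatives (adjusted p = 0.051 to 0.124). Against TG6 the mature difference was 0.97 (adjusted p = 0.156), and 1.41 without TG6 mature replicate 3 (adjusted p = 0.0209).

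Over the stages, Pdcd1 fell from early to late by 1.44 on the log2 scale in F5 (SE 0.43, adjusted p = 0.0151) and by 1.31 in OT-1 (SE 0.43, adjusted p = 0.027), and its difference in TG6 was 0.02 (95% interval -0.97 to 1.02). The F5 call was lost without F5 late replicate 1 (adjusted p = 0.0811) and in 2 of 3 fits without 1 mouse (0.0873 and 0.0884). The OT-1 call was lost in 4 of 6 fits without 1 library, namely early replicates 1 and 3 and late replicates 1 and 2 (adjusted p = 0.0512 to 0.136). It was also lost in 3 of 3 fits without 1 mouse (adjusted p = 0.0654 to 0.113). From late to mature, the F5 difference of 1.00 passed with mouse as a block (adjusted p = 0.0327, against 0.109 without) and without F5 mature replicate 1 (0.0166). With mouse as a fixed term the early to late step differed between F5 and TG6 (log2 difference -1.66, adjusted p = 0.044, against 0.334). The 250 bases before the Pdcd1 start (GRCm38.p6, minus strand, chr1:94052554-94052803, outside the gene) hold 2 NFAT core matches, in capitals, that follow each other directly 28 and 23 bases before the start.

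Pdcd1 promoter: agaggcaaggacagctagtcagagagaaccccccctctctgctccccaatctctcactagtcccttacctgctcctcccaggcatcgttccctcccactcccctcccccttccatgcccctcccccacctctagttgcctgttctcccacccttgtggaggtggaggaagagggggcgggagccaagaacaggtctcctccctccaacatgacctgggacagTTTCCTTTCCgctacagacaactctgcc

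Among the TNF receptor family, Cd27, a receptor already present on thymocytes and naive T cells, was the most abundant of the 9 per length of exon (chromosome 6, 125232622 to 125237010, minus strand). Its group means ran from 1680 to 3810 normalized counts per kilobase, against 794 to 2350 for Cd28 and at most 582 for any other of the genes. Cd27 counts in TG6 were 8537, 9183 and 8730 at the early stage, 7628 and 7772 at the late stage and 4789, 4553 and 3676 in mature CD8SP. Cd27 counts in F5 were 8990, 8547 and 9051, then 7443, 9732 and 9292, then 5160, 5723 and 6002. Cd27 counts in OT-1 were 8283, 7679 and 8685, then 6565, 5348 and 7636, then 3837, 3483 and 4432. Mature libraries lay below all late libraries of their line, and the mature F5 libraries lay above all mature libraries of TG6 and OT-1. Cd27 fell from late to mature by 0.84 on the log2 scale in TG6 (SE 0.14, adjusted p = 0.000146), by 0.64 in F5 (SE 0.12, adjusted p = 0.000625) and by 0.73 in OT-1 (SE 0.12, adjusted p = 0.000215). OT-1 lay below F5 by 0.44 at the late stage (log2 fold change -0.44, SE 0.12, adjusted p = 0.0116) and by 0.53 in mature CD8SP (log2 fold change -0.53, SE 0.12, adjusted p = 0.00407). The late call was lost without F5 late replicate 2 (adjusted p = 0.066), F5 late replicate 3 (0.0542) or OT-1 late replicate 2 (0.0923), and in a fit of the compared groups alone (0.0808). Cd27 also fell from early to late in OT-1, by 0.35 (adjusted p = 0.0408), a call lost in 4 of 6 fits without 1 library, namely early replicates 1 and 3 and late replicates 1 and 2 (adjusted p up to 0.254), and in 4 other alternatives (0.0639 to 0.0701).

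Tnfrsf4 and Tnfrsf18, which encode OX40 and GITR, are neighbours on chromosome 4, 9551 bases apart and both on the plus strand. Tnfrsf4 (156013843 to 156016612) was low throughout, between 21.2 and 159.6 in the 26 libraries. Tnfrsf4 counts in TG6 were 36.4, 21.2 and 51.8 at the early stage, 102.7 and 105.8 at the late stage and 100.1, 126.3 and 54.1 in mature CD8SP. Tnfrsf4 counts in F5 were 47.2, 46.7 and 28.0, then 85.2, 59.7 and 69.6, then 95.6, 75.4 and 60.7. Tnfrsf4 counts in OT-1 were 50.5, 52.2 and 40.6, then 86.7, 159.6 and 59.7, then 80.3, 113.3 and 43.0. Late libraries lay above early ones in each line, and the lines overlapped at each stage except that the F5 late libraries lay below both TG6 late libraries. The rise from early to late was 1.58 on the log2 scale in TG6 (SE 0.44, adjusted p = 0.00988), 0.82 in F5 (95% interval 0.01 to 1.64, adjusted p = 0.13) and 0.97 in OT-1 (0.15 to 1.79, adjusted p = 0.0731). The TG6 call was lost without TG6 early replicate 2 (adjusted p = 0.0566) or either TG6 late library (0.0598 and 0.0695). The OT-1 rise passed with mouse as a block (adjusted p = 0.0285) and without OT-1 late replicate 3 (0.0297).

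Tnfrsf18 (156026164 to 156028895) varied little within groups. Tnfrsf18 counts in TG6 were 167.2, 202.1 and 189.5 at the early stage, 234.5 and 292.2 at the late stage and 391.5, 354.9 and 335.4 in mature CD8SP. Tnfrsf18 counts in F5 were 215.2, 204.1 and 196.9, then 222.5, 205.3 and 214.4, then 224.6, 260.6 and 243.4. Tnfrsf18 counts in OT-1 were 197.5, 212.5 and 143.1, then 335.3, 348.2 and 262.7, then 369.6, 339.7 and 234.0. In TG6 the 3 stages followed each other upward without overlap, in OT-1 the late libraries lay above the early ones, and in F5 the early and late libraries overlapped. Tnfrsf18 rose from early to late in OT-1 by 0.78 on the log2 scale (SE 0.17, adjusted p = 0.0015). In TG6 the steps of 0.49 (adjusted p = 0.0604) and then 0.46 (adjusted p = 0.0887) passed with mouse as a block (adjusted p = 0.0179 and 0.0254), and in F5 the early to late difference was 0.06 (95% interval -0.29 to 0.41). With the block, the change from early to mature differed between F5 and TG6 (log2 difference -0.71, adjusted p = 0.0188, against 0.103 without), and the early to late step between OT-1 and F5 (0.72, adjusted p = 0.0289, against 0.161). Between lines, OT-1 exceeded F5 at the late stage by 0.55 (SE 0.17, adjusted p = 0.0219), and F5 lay below TG6 in mature CD8SP (log2 fold change -0.57, SE 0.17, adjusted p = 0.0457). Leaving out F5 late replicate 2 or 3 or OT-1 late replicate 1 or 2 ended the first call (adjusted p = 0.0564 to 0.0916), and 5 of 6 fits without 1 library, all but that without TG6 mature replicate 3, ended the second (adjusted p = 0.0585 to 0.153), as did 6 of 6 fits without 1 mouse (0.0505 to 0.174). Quantile normalization also ended the first (0.112), and 4 other alternatives the second (0.0634 to 0.188). OT-1 exceeded F5 in mature CD8SP by 0.35 (adjusted p = 0.144), and by 0.55 without OT-1 mature replicate 3 (adjusted p = 0.0267).

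Tnfrsf9 encodes 4-1BB, a costimulatory receptor induced on activated T cells, best known on CD8 T cells (chromosome 4, 150914562 to 150946102, plus strand). Tnfrsf9 counts in TG6 were 12.4, 2.51 and 4.23 at the early stage, 94.3 and 164.9 at the late stage and 149.1, 151.4 and 204.5 in mature CD8SP. Tnfrsf9 counts in OT-1 were 7.70, 4.22 and 9.73, then 83.1, 53.6 and 44.0, then 64.8, 117.6 and 72.7. Tnfrsf9 counts in F5 were 2.88, 2.35 and 1.44, then 7.09, 2.59 and 0, then 5.0, 9.93 and 7.31. At the late and mature stages every TG6 and OT-1 library lay above every F5 library, while at the early stage all lines were near the bottom of the scale. TG6 lay above OT-1 without overlap at the late and mature stages, yet the differences of OT-1 minus TG6, -1.09 (95% interval -2.42 to 0.24) and -1.01 (-2.20 to 0.18), did not pass (adjusted p = 0.271 and 0.274).

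F5 lay below TG6 at the late stage by 5.35 on the log2 scale (log2 fold change -5.35, SE 0.64, adjusted p = 5.55e-06) and in mature CD8SP by 4.36 (log2 fold change -4.36, SE 0.57, adjusted p = 1.42e-05). OT-1 exceeded F5 by 4.27 (SE 0.57, adjusted p = 9.46e-06) and 3.35 (SE 0.57, adjusted p = 0.000264) at the same stages. These 4 calls held in every fit without 1 library or 1 mouse and under the other alternatives in which Tnfrsf9 was tested. The size depends on the pseudocount, and F5 minus TG6 at the late stage ranged from -6.65 to -4.07 over those alternatives. At the early stage all F5 libraries were at or under 3, the TG6 libraries overlapped them, and neither OT-1 nor TG6 was called against F5 (adjusted p = 0.143 and 0.37). From early to late Tnfrsf9 rose by 4.33 in TG6 (SE 0.64, adjusted p = 2.15e-05) and by 2.91 in OT-1 (SE 0.57, adjusted p = 0.000634), and in F5 the difference was -0.04 (95% interval -1.23 to 1.15). From late to mature the F5 difference was 1.41 (adjusted p = 0.0884), which passed with mouse as a block by consensus correlation (0.0492). It also passed without F5 late replicate 1, at 2.11 (adjusted p = 0.00933). No F5 library reached 10, so that Tnfrsf9 was tested through the other lines. Its changes within F5 lie among values at which it would not have passed the filter.

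The early to mature change of Tnfrsf9 differed between F5 and TG6 by -3.37 on the log2 scale (SE 0.81, adjusted p = 0.017), and the early to late change by -4.37 (SE 0.86, adjusted p = 0.0056). The first was lost without TG6 early replicate 2 (adjusted p = 0.0577) and the second without TG6 late replicate 2 (0.0662), and leaving out all libraries of TG6 mouse 2 ended both (0.0959 and, at -3.55, 0.172) and those of mouse 3 the first (0.0663). A pseudocount of 0.1 ended both (0.212 and 0.0505), and a fit of the compared groups alone the second (0.0801). Between OT-1 and F5 the early to late change differed by 2.95 (95% interval 1.27 to 4.63, adjusted p = 0.0672), and this passed with mouse as a block (adjusted p = 0.0244) and without F5 late replicate 1 (0.0129). Foxp3 stood at 41.8 and 46.9 in TG6 late, 4.89 to 14.9 in F5 late and 7.90 to 10.6 in OT-1 late, and in mature CD8SP at 19.2 to 35.2, 11.6 to 23.8 and 3.01 to 4.13 in the same order of lines. The 6 regulatory T cell genes summed to 3033 to 3220 in TG6 late, 1974 to 2547 in F5 late and 5061 to 5723 in OT-1 late. Most of this was Ikzf2, which thymocytes also express. At the late stage in TG6, F5 and OT-1, Gpr83 averaged 481.7, 122.5 and 252.5 and Ikzf4 336, 177 and 201.1, the line order of Tnfrsf9. Lrrc32 averaged 98.6, 51.1 and 15.1 and Il2ra 169.2, 211.7 and 100.7, both lowest in OT-1. The part of regulatory T cells was not tested. The dendritic cell and macrophage genes summed to 602 to 1069, 47.9 to 102.2 and 403.6 to 465.2 at the late stage in TG6, F5 and OT-1, the same order as Tnfrsf9, and to 1138 to 2402, 256.1 to 921.6 and 822.5 to 1219 in mature CD8SP, where F5 and OT-1 overlapped in these sums but not in Tnfrsf9. In OT-1 they summed to 399.7 to 1090 at the early stage, where Tnfrsf9 was at 4.22 to 9.73. The part of those cells was not tested.

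RefSeq gives 2 starts for Tnfrsf9. The 250 bases before the upstream start (GRCm38.p6, plus strand, chr4:150919905-150920154, inside an intron of a longer GENCODE transcript) are printed because Tnfrsf9 had the largest log2 fold change of the 9 genes between lines, and their capitals mark the 2 matches to the NFAT core.

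Tnfrsf9 upstream promoter: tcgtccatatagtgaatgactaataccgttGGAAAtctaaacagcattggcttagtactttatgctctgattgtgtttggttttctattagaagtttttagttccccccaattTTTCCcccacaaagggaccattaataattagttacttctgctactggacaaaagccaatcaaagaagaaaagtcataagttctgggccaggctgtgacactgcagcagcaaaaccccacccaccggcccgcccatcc

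The window before the downstream start (chr4:150927749-150927998) held 3 NFAT core matches and was the one member window with a match to AP-1 (TGANTCA) and to the NF-kB consensus. Both sites are shown with 5 flanking bases on either side and with the match in capitals, at chr4:150927951-150927971 and chr4:150927979-150927995, where GENCODE also places an exon of another transcript of the gene.

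Tnfrsf9 NF-kB site: cagctGGGGATTTCCCaggag
Tnfrsf9 AP-1 site: tcagtTGAGTCAcaggt

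The capitals of the NF-kB site span 2 overlapping matches, 1 base apart. RefSeq windows matched 6 of the 9 genes, with 7 windows, and 6 motifs were searched on both strands. The NFAT core was found in all 7 windows and in 55.6% of 32851 windows of all genes. AP-1 was found in 1 of 7 and in 6.75% of all, and the NF-kB consensus in 1 of 7 and in 7.25%, and an NFAT core match overlaps that NF-kB match. The EGR motif GCGTGGG (4.3% of all windows), the NBRE AAAGGTCA (1.34%), to which Nur77 binds, and the RUNX motif TGTGGT (14%) were found in 0 of 7. These are matches of letters only.

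Cd40lg encodes the ligand of CD40, in the periphery a product chiefly of CD4 helper T cells (chromosome X, 57212143 to 57224042, plus strand). Cd40lg counts in TG6 were 4.95, 1.99 and 1.94 at the early stage, 23.5 and 51.1 at the late stage and 12.1, 9.15 and 5.92 in mature CD8SP. Cd40lg counts in F5 were 11.7, 3.87 and 2.91, then 94.97, 47.2 and 55.0, then 15.2, 2.84 and 5.02. Cd40lg counts in OT-1 were 49.96, 61.3 and 43.4, then 193.6, 179 and 237.2, then 132.7, 111.7 and 132.3. OT-1 lay above both other lines at each stage without overlap, and the lowest OT-1 mature library exceeded the highest late library of TG6 and of F5. OT-1 exceeded TG6 by 3.80 on the log2 scale at the early stage (SE 0.48, adjusted p = 4.49e-06), 2.51 at the late stage (SE 0.54, adjusted p = 0.00269) and 3.70 in mature CD8SP (SE 0.48, adjusted p = 2.14e-05). It exceeded F5 by 3.06 (adjusted p = 0.000133), 1.67 (adjusted p = 0.015) and 4.13 (adjusted p = 3.12e-06). F5 and TG6 differed by 0.74, 0.84 and -0.43, none past the threshold (adjusted p = 0.44, 0.512 and 0.731). The late call against TG6 was lost without TG6 late replicate 1 (1.96, adjusted p = 0.0849), and the late call against F5 without F5 late replicate 2 (adjusted p = 0.0664), F5 late replicate 3 (0.0554) or OT-1 late replicate 3 (0.0522).

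From early to late Cd40lg rose by 3.26 on the log2 scale in TG6 (SE 0.54, adjusted p = 8.7e-05), 3.36 in F5 (SE 0.48, adjusted p = 1.99e-05) and 1.96 in OT-1 (SE 0.48, adjusted p = 0.00441). From late to mature the log2 fold change was -1.88 in TG6 (SE 0.54, adjusted p = 0.0154) and -3.15 in F5 (SE 0.48, adjusted p = 6.97e-05), and that of OT-1, -0.68 (95% interval -1.69 to 0.32, adjusted p = 0.323), did not pass, though its mature libraries lay below its late ones and it passed in a fit of the compared groups alone (0.0152). The TG6 fall was lost without TG6 late replicate 2 (adjusted p = 0.231) or TG6 mature replicate 3 (0.0628) and with the compared groups alone (0.108), and the OT-1 rise without all libraries of mouse 3 (0.0706). The late to mature step differed between OT-1 and F5 by 2.46 (95% interval 1.04 to 3.89, adjusted p = 0.0899), and passed with mouse as a block (adjusted p = 0.0148) and without F5 mature replicate 1 (0.024). Zbtb7b, the factor of the CD4 lineage, had group means of 168.6 in OT-1, 11.6 in TG6 and 6.22 in F5 at the early stage, 243.8, 90.6 and 20.3 at the late stage and 23.1, 15.6 and 0.402 in mature CD8SP. Against TG6 it was called higher in OT-1 at the early stage alone (3.82, adjusted p = 0.000336) and against F5 at all 3 stages, and its mature difference to TG6 was 0.60 (adjusted p = 0.631). Cd4, the other gene of that list, had group means of 8026 in OT-1, 22110 in TG6 and 13540 in F5 at the early stage, 2507, 4087 and 7935 at the late stage and 153.4, 222.1 and 259 in mature CD8SP. Unlike Cd40lg, it was called lower in OT-1, against TG6 at the early stage (log2 fold change -1.46, adjusted p = 0.0319) and against F5 at the late stage (-1.74, adjusted p = 0.0133). The part of cells of the CD4 lineage was not tested.

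The genes most like each member over the 26 libraries were taken by Pearson correlation of log2(value + 1) among 10763 genes. The libraries share stage and line, so that these correlations are descriptions. Tnfrsf9 was most like Irgm1 (r = 0.939), Parp9 (0.928) and Dhx58 (0.926). Irgm1 had group means of 371.1, 1318 and 1572 in TG6, 295.9, 241.9 and 337.1 in F5 and 455.5, 1031 and 959.5 in OT-1 from early to mature, and was thus, like Tnfrsf9, low in F5 at the late and mature stages. Dhx58 stood at 605.3 in TG6 late, 53.2 in F5 late and 529.3 in OT-1 late. Cd40lg was most like Zmiz1 (0.954), Slc16a10 (0.929) and St6gal1 (0.918). Icos was most like Arid5a (0.947), Cd28 like Frs2 (0.935), Cd27 like Clip2 (0.952) and Pdcd1 like Mapk1ip1l (0.926). Tnfrsf18 was most like Pmepa1 (0.913) and Tnfrsf4 like Rcan3 (0.875). Ctla4 had the weakest best match, Il20rb (0.849). Among the 9 genes themselves the lowest correlations were those of Cd27 with Tnfrsf18 (-0.771), Icos (-0.716) and Tnfrsf9 (-0.712).

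Related genes were counted for OT-1 against TG6, where 27.8%, 15.5% and 9.74% of all genes were called at the early, late and mature stages and the median log2 fold change over all genes lay within 0.01 of 0. Each count that follows stands beside those shares, and nothing is read as particular to a list. Of 10 ligands of the receptors 6 were tested, and 4 were higher in OT-1 at the early stage, 1 at the late stage and 1 in mature CD8SP, with 0 lower (list medians 1.47, -0.13 and -0.07). The ligand called at all 3 stages was Pdcd1lg2, encoding PD-L2, with 76.6 ± 21.3 in OT-1 and 8.86 ± 4.55 in TG6 at the early stage (SD, n = 3 each, log2 fold change 3.04, adjusted p = 0.000321). Cd274, encoding PD-L1, stood at 821.8 ± 232.4 and 337.5 ± 26.1 (SD, n = 3 each, log2 fold change 1.24, adjusted p = 0.00137). Dendritic cells and macrophages express these ligands, and their marker genes were summed. At the early stage the sums were 399.7 to 1090 in OT-1 and 194.8 to 264.3 in TG6, with 6 of 8 called higher in OT-1. At the late stage they were 403.6 to 465.2 in OT-1 and 602 to 1069 in TG6, with 0 of 8 called higher and 2 lower in OT-1. In mature CD8SP they were 822.5 to 1219 and 1138 to 2402, with 0 of 8 called. The part of those cells was not tested.

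Of 13 other receptors of the immunoglobulin superfamily, 5 were higher and 3 lower in OT-1 at the early stage, 4 and 3 at the late stage and 2 and 2 in mature CD8SP (list medians 0.57, -0.20 and -0.27). Btla, an inhibitory receptor, had 1173 ± 145.6 in OT-1 and 71.0 ± 15.3 in TG6 at the early stage (SD, n = 3 each, log2 fold change 4.04, adjusted p = 5.32e-10), and 0.74 in mature CD8SP did not pass (adjusted p = 0.0934). Tigit, another inhibitory receptor, exceeded its TG6 level at all 3 stages, by 3.33, 3.42 and 2.29 (adjusted p = 5.94e-06, 3.16e-05 and 0.00142). Lag3, which binds MHC class II, went the other way at the early stage, 23.0 ± 4.81 against 155.7 ± 13.9 (SD, n = 3 each, log2 fold change -2.72, adjusted p = 0.000567). Of 14 other TNF receptor family genes 13 were tested, with 3 higher and 3 lower, 2 and 3, and 3 and 3 at the 3 stages (list medians -0.08, 0.34 and 0.03). Tnfrsf25, encoding death receptor 3, was higher in OT-1 mature CD8SP by 1.66 (adjusted p = 1.85e-06), Tnfrsf21 at the late stage by 2.58 (adjusted p = 0.00039), and Tnfrsf1b, encoding the second TNF receptor, at the early stage by 1.26 (adjusted p = 0.0158).

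Downstream of the receptors, 6 of 21 TRAF and NF-kB genes were higher and 3 lower in OT-1 at the early stage, 2 and 0 at the late stage and 0 and 3 in mature CD8SP (list medians 0.08, 0.07 and -0.15). Relb and Rel, NF-kB subunits, were higher at the early stage by 1.16 (adjusted p = 8.41e-05) and 1.00 (adjusted p = 0.00223), and Traf1, an adaptor that binds 4-1BB, was lower in OT-1 mature CD8SP (702.5 ± 105.4 against 1695 ± 519.2, SD, n = 3 each, log2 fold change -1.23, adjusted p = 0.000471). Of 15 CD28 and ICOS signalling genes, 4 were higher and 4 lower, then 1 and 1, then 1 and 1 (list medians 0.16, 0.17 and 0.12). Malt1 was higher at the late stage by 1.39 (adjusted p = 2.7e-06), and Prkcq and Pik3cd, a kinase of the NF-kB route and a PI3 kinase subunit, at the early stage by 0.91 (adjusted p = 5.54e-07) and 0.79 (adjusted p = 0.000331). Of 8 genes of inhibitory receptor signalling and traffic, 4, 1 and 0 were higher and 0 lower (list medians 0.22, 0.12 and 0.19), among them at the early stage the phosphatase genes Ptpn6 (0.86, adjusted p = 0.000169) and Ptpn2 (0.85, adjusted p = 1.99e-05) and Ppp2r1a (0.25, adjusted p = 0.0261).

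Of 9 response genes of costimulation 8 were tested, with 2 higher and 3 lower, 0 and 1, and 0 and 2 (list medians 0.14, -0.07 and -0.11). Bcl2l1, the survival gene that encodes Bcl-xL, was at 1242 ± 111.6 in OT-1 and 3905 ± 210.2 in TG6 at the early stage (SD, n = 3 each, log2 fold change -1.65, adjusted p = 1.72e-06), and Il2ra, a subunit of the IL-2 receptor, at 386.3 ± 80.2 and 1011 ± 254.3 (log2 fold change -1.37, adjusted p = 0.00619). Ccnd2, a cyclin, was called higher in OT-1 at the early stage (3.27, adjusted p = 0.00132), at 940.4 ± 1352 against 42.0 ± 14.3 (SD, n = 3 each), a spread within OT-1 larger than its mean. Of 9 TCR response genes, 4, 5 and 2 were higher in OT-1 and 0 lower (list medians 1.27, 1.72 and 0.92). At the late stage Irf4 was higher by 2.44 (adjusted p = 8.53e-06), Nr4a1 by 2.38 (adjusted p = 0.0395, with no late library of TG6 replicate 3, the number in which Nr4a1 was highest) and Cd5, which follows self-reactivity, by 2.10 (adjusted p = 2.8e-07).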

How the data were processed

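RNA from sorted mouse thymocytes was sequenced in 26 libraries, grouped into 9 groups of line and stage by their labels. The authors trimmed reads with Trimmomatic 0.32 and estimated counts with RSEM 1.2.31 and Bowtie2 2.3.2 on mm10, and the deposited signal is these counts scaled with DESeq2 size factors. Strandedness is not given in the sources used here. Whole reads could not be recovered for nearly all genes (42.4% to 44.2% of values per library were within 0.01 of a whole multiple of the step), so that no count test was run. The 9 genes and all gene lists were chosen with earlier results of these data known. Values were tested as log2(value + 1) with limma 3.58.1 in R 4.3.3, in 1 fit of the 9 group means (17 residual degrees of freedom, prior variance following expression), for genes at 10 or above in at least 2 libraries, with 2-sided p-values adjusted by Benjamini-Hochberg within each comparison. Tables and figures were made with Python 3.11.15, pandas 2.3.3 and matplotlib 3.10.9. The procedure was tested on constructed data with known changes. Those data had independent libraries, so that they could not show how correlation within a replicate number affects the calls.

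Named genes were the 9 genes and, of each list of related genes, at most 3 with the largest log2 fold change among those called between OT-1 and TG6 at any stage and with a mean of at least 50 in the higher group. Genes of like pattern had a mean of at least 100 in at least 1 group. Nr4a1 by mouse, Zbtb7b, Foxp3 and Mki67 were singled out after their values were seen. The result of 1 marker list is not reported here. Replicate numbers were read as mice within a line, which the labels do not state. Libraries of a line with the same number had correlated deviations from their group means in F5 (r = 0.106 to 0.34, 9 of 9 pairs over 0.1), and less so in OT-1 (0.0189 to 0.178, 5 of 9) and TG6 (0.023 to 0.274, 2 of 7). A block for mouse with a consensus correlation of 0.28 was the paired alternative. The fit was also repeated with mouse as a fixed term, without each library or mouse in turn, with libraries scaled to 1 total or quantile normalized, with a pseudocount of 0.1 or 5, without the filter or with genes of a mean under 50 removed, without the trend, and on the compared groups alone. Levels per length used exon lengths of GENCODE vM21 on GRCm38, and promoter windows came from RefSeq.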

Additional observations from a re-analysis of the deposited data

Results flagged for a closer look

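The change of Tnfrsf9 from early positive selection to mature CD8SP differed between F5 and TG6, by a test of the difference itself (log2 difference -3.37, limma adjusted p = 0.017). The change from early to late differed likewise (log2 difference -4.37, limma adjusted p = 0.0056), in a comparison added after the values were seen. All 3 F5 late libraries lay at 7.09 or below and both TG6 late libraries at 94.3 or above. No F5 library reached 10 at any stage and TG6 early lay at 2.51 to 12.4, so that Tnfrsf9 passed the filter through libraries of TG6 and OT-1. Its change within F5 lies among values under the filter. The first call was lost without TG6 early replicate 2 (-2.96, limma adjusted p = 0.0577) and the second without TG6 late replicate 2 (-3.97, limma adjusted p = 0.0662). With a pseudocount of 0.1 the limma adjusted p was 0.212 and 0.0505.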

How the results depend on the processing

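Of 42 called results for the 9 genes, 0 reversed. Leaving out 1 library kept 212 of 254 fits and 1 mouse 143 of 189, and the other alternatives kept 368 of 393. The cause of lost calls was not tested. Total scaling moved the median of all genes by up to -0.13 on the log2 scale (OT-1 against TG6, late). Where 1 TG6 late library was left, it was assumed to vary like the other groups.

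Counts of genes called that moved by over 1.5 times were these. For the early to mature change of F5 against TG6 the count went from 1 to 0 with a pseudocount of 0.1 or a mean of at least 50, under which Tnfrsf9 was not tested. For the early to late step of F5 against TG6 it went from 1 to 0 under the same 2 settings and with only the groups compared. With a pseudocount of 5, OT-1 against F5 went from 0 to 1 for the early to mature change and the early to late step. For F5 against TG6 the mature count went from 2 to 1 with no filter, a mean of at least 50 or only the groups compared, the late count from 1 to 0 with a mean of at least 50 and the early count from 0 to 1 with only the groups compared.

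With mouse as a replicate block by consensus correlation, F5 from late to mature went from 3 to 5, the early to mature change of F5 against TG6 from 1 to 3, and the steps of OT-1 against F5 from 0 to 2 (early to late) and 0 to 1 (late to mature). With mouse as a fixed replicate block, the early to mature change went from 0 to 1 for OT-1 against TG6 and from 1 to 3 for F5 against TG6, the early to late step from 0 to 2 for OT-1 against F5 and from 1 to 2 for F5 against TG6, and the late to mature step from 0 to 1 for OT-1 against TG6 and for OT-1 against F5. Under that block Ctla4 fell from late to mature in OT-1 (log2 fold change -0.60, limma adjusted p = 0.0426), and Pdcd1 differed in its early to late step between F5 and TG6 (-1.66, limma adjusted p = 0.044).

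Leaving out 1 library or mouse gave 2 to 3 genes for OT-1 against TG6 early, 0 to 1 late and 1 to 2 mature. OT-1 against F5 gave 1 to 3, 2 to 6 and 3 to 5, and F5 against TG6 gave 0, 1 and 1 to 3. The early to late step gave 3 to 4 in TG6, 2 to 3 in F5 and 4 to 7 in OT-1, and the late to mature step 2 to 3, 3 to 4 and 1 to 2. The early to mature change of F5 against TG6, the early to late step of F5 against TG6 and of OT-1 against F5, and the late to mature step of OT-1 against F5 gave 0 to 1 each.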

Other observations

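Of the lists of other cell types, the 4 gamma delta T cell genes summed to 1834 to 2126 in TG6 early, 8851 to 10050 in F5 early and 9132 to 10130 in OT-1 early. Against TG6, 4 of 4 were called higher in OT-1 at the early stage, 3 at the late stage and 2 in mature CD8SP. Of all genes, 27.8%, 15.5% and 9.74% were called there. Trdc made up most of the sums, with early means of 1855 in TG6, 9389 in F5 and 7064 in OT-1. Sox13 averaged 73.1, 30.5 and 2420 in the same order. The Rag genes, which TCR chains need to rearrange, were deleted in F5 and OT-1. What these levels reflect was not tested. The 5 thymic epithelium genes summed to 39.95 to 90.98, with 1 of 3 tested higher in OT-1 early. The 4 red cell genes summed to 31.48 to 1270, with 0 called between OT-1 and TG6. The 3 NK cell genes summed to at most 48.64, with 0 called between OT-1 and TG6 and the 1 tested, Klrk1, called in mature CD8SP as lower in F5 than in TG6 (log2 fold change -3.68) and higher in OT-1 than in F5 (2.91), and the 2 NKT and MAIT cell genes to at most 15.29, with 0 tested. Between OT-1 and TG6, 0, 7 and 1 of 10 cell division genes were called at the 3 stages, each higher in OT-1.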
